A study of Rattus norvegicus with 24 samples.

Results

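Left ventricle plus septum was profiled in 24 rats, and 6 of these 24 hearts (25%) carried high levels of transcripts that are typical of the atria. The 6 hearts were selected on measured values. The log2 signals of 4 transcripts, Myl7, Myl4, Sln, and Nppa, were averaged in every heart after quantile normalization, and hearts with an average above 11 (the atrial mean) were set against the other 18. The values of these 4 transcripts are therefore a description and received no test. All other transcripts came from the same arrays that chose the hearts, so that their differences describe what varied together with the atrial mean and are not tests of a treatment.

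The animals were male Wistar Kyoto rats, 12 to 14 weeks old, which received material in the trachea once a week at 1 mL/kg under halothane. Each group had 4 rats, and each rat had 1 array. Saline was the control, and MSH was volcanic ash from Mount St. Helens that holds no water-soluble zinc. PM-HD was the whole suspension of oil combustion particles with 14.5 μg of zinc and 3.0 μg of nickel per mg, PM-LD was the same particle sample at a lower dose, which its label writes as 7.25 μg of zinc and 1.5 μg of nickel per mg, and PM-L was the leachate of these particles. The zinc sulfate group received zinc alone, at 14.5 μg/mL by its label, although a protocol in the labels gives another concentration. Hearts were taken 2 days after the last instillation, the right ventricle was discarded, and pieces of left ventricle with septum were frozen. The saline, MSH, PM-HD, and zinc sulfate arrays came from rats treated for 8 weeks. The sources used here do not give how the atria were handled, nor the number of weeks of the PM-LD and PM-L arrays.

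Atrial and ventricular cardiomyocytes build their contractile filaments from different light chains. Myl7 is the regulatory and Myl4 the essential myosin light chain of the atria, and their ventricular counterparts are Myl2 and Myl3. Sln encodes sarcolipin, a small inhibitor of the calcium pump of the sarcoplasmic reticulum that is enriched in atria, and Nppa encodes atrial natriuretic peptide, which atrial cells store in granules and which the adult ventricle makes under load. In bulk tissue, fewer cells of a type and less RNA per cell cannot be told apart.

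The bases before the start of the genes that the results turn on are shown because these transcripts varied together. RefSeq (GRCr8) gave 150 bases before the start for 4 of 5 genes looked up, namely Nppa (chr5:163712034-163712183, plus strand), Myl7 (chr14:84996625-84996774, minus strand), Myl4 (chr10:89976000-89976149, plus strand), and Mybphl (chr2:198693302-198693451, plus strand). Sln was the fifth. Capitals mark GATAA (the core of GATA factor sites), AAGTG (the core of NKX2-5 sites), and TATAAA, each on either strand and without overlap.
Nppa: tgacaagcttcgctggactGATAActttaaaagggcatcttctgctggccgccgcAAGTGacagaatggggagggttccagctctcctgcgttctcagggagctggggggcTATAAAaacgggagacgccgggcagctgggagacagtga
Myl7: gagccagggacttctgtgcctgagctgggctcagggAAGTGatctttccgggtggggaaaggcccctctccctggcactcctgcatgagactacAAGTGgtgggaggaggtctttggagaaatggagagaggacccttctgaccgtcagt
Myl4: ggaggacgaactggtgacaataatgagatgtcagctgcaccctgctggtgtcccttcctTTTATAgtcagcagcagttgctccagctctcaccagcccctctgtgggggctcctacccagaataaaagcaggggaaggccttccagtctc
Mybphl: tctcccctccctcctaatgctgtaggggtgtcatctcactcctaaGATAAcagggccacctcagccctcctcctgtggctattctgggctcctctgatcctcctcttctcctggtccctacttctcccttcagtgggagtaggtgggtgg

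GATAA stood before Nppa and Mybphl, and 14.2% of all 33469 RefSeq windows of this length held it. AAGTG stood before Nppa and Myl7, against 26.7% of all windows, and TATAAA before Nppa and, on the reverse strand, Myl4, against 8.0%. No motif was shared by all 4 windows, and a match describes letters only.

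The atrial mean ran from 7.81 (saline replicate 3) to 13.16 (PM-L replicate 2). The 6 high hearts were PM-L replicate 2 at 13.16, PM-LD replicate 2 at 13.12, saline replicate 1 at 12.48, PM-L replicate 4 at 11.88, zinc sulfate replicate 2 at 11.66, and MSH replicate 1 at 11.35. The heart just inside the limit was MSH replicate 1, and just outside lay PM-HD replicate 2 at 10.44, MSH replicate 3 at 10.32, and MSH replicate 4 at 10.09. The other 15 low hearts were at 9.4 or below. High hearts came from 5 of 6 exposure groups, with 2 of 4 in PM-L, 1 of 4 each in saline, MSH, PM-LD, and zinc sulfate, and 0 of 4 in PM-HD. The title of saline replicate 1, the only high saline heart, has a number outside the run of the other arrays. It also has a suffix that the labels do not explain. Whether this bears on the differences within saline was not tested. The distribution of the 6 hearts over the groups gave p = 0.97 (Fisher-Freeman-Halton exact test, two-sided, n = 4 per group). With 4 hearts in a group, this p does not show that the groups were alike. The median atrial mean was 8.4 in saline, 10.21 in MSH, 8.55 in PM-HD, 8.93 in PM-LD, 10.4 in PM-L, and 8.96 in zinc sulfate.

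**Figure D1:**
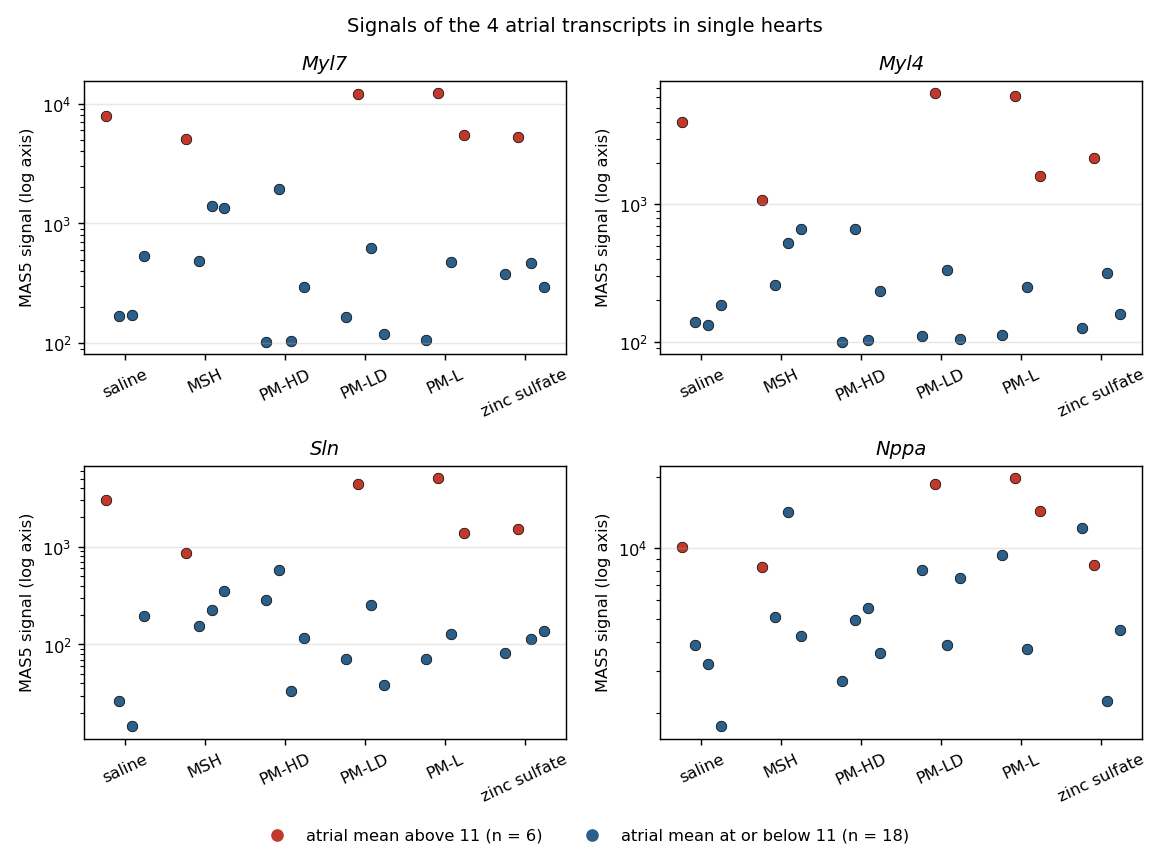
Signal of Myl7, Myl4, Sln, and Nppa in each of 24 hearts (MAS5 signal, log axis) by exposure group, with 1 point per rat in the order of replicate numbers. Red points are the 6 hearts with an atrial mean above 11 and blue points the other 18. For Myl7, Myl4, and Sln every red point lies above every blue point, and for Nppa the colors mix.

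Myl7 showed the widest separation among the 4. Its signal was 12169 in PM-L replicate 2, 11946 in PM-LD replicate 2, 7849 in saline replicate 1, 5511 in PM-L replicate 4, 5317 in zinc sulfate replicate 2, and 5076 in MSH replicate 1. In the 18 low hearts it ran from 102.8 to 1935 with a median of 336.4. The groups did not overlap, and the difference within exposure groups was 4.40 on the log2 scale (SE 0.55), or 21.1-fold. It was present in each of the 5 groups with both kinds of hearts, from 2.47 in MSH to 5.63 in PM-LD.

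Myl4 had signals of 1079 to 6415 with a median of 3065 in the high hearts, and of 99.7 to 662.1 with a median of 172 in the low hearts, a log2 difference of 3.72 (SE 0.45). Sln had 860.2 to 5068 with a median of 2261 in the high hearts and 14.5 to 583.9 with a median of 121.2 in the low hearts, a log2 difference of 4.18 (SE 0.53). Neither transcript overlapped between the groups. The order of the hearts was nearly shared. PM-L replicate 2 and PM-LD replicate 2 were the 2 highest for Myl7, Myl4, and Sln, and MSH replicate 1 was the lowest of the 6 for all 3 on the deposited signals. On normalized log2 values Myl7 was lowest in zinc sulfate replicate 2, at 12.19 against 12.42.

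Nppa behaved differently. Its signal was 8277 to 19843 with a median of 12226 in the high hearts and 1752 to 14165 with a median of 4358 in the low hearts, a log2 difference of 1.26 (SE 0.32), or 2.40-fold. The groups overlapped, with 3 low hearts inside the range of the high hearts and 3 high hearts inside that of the low hearts. MSH replicate 3 had 14165 with a Myl7 signal of 1399, zinc sulfate replicate 1 had 12121 with a Myl7 signal of 375.7, and PM-L replicate 1 had 9332 with a Myl7 signal of 105.7. High Nppa thus occurred with and without the light chains.

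Correlations between the 4 transcripts were also taken within the low and within the high hearts, and their difference was not tested. Across the 24 hearts, log2 Myl7 and Myl4 correlated at r = 0.97, Myl7 and Sln at 0.93, and Myl4 and Sln at 0.94, and Nppa correlated with the 3 at 0.63, 0.66, and 0.60, which is a description only because these transcripts chose the hearts. In the 18 low hearts, Myl7 with Myl4, Myl7 with Sln, and Myl4 with Sln had r of 0.94, 0.73, and 0.72. Nppa had r of 0.07 with Myl7, 0.05 with Myl4, and −0.06 with Sln in the low hearts, and of 0.89, 0.75, and 0.78 in the 6 high hearts. The low and high hearts were split on the mean of these same 4 transcripts, which by itself changes correlations within each part. The values within each part are therefore a description too. All points share the arrays and their normalization.

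Outside the 4 transcripts, 15862 probe sets were compared between high and low hearts with exposure group in the model. At an adjusted p under 0.05, 1 probe set passed (0.00630%), that of Mybphl. By the thresholds in the study's methods (unadjusted p under 0.05 together with a minimum fold in either direction), 371 were higher (2.34%) and 259 lower (1.63%) in the high hearts. At an unadjusted p under 0.05 alone, 886 probe sets passed (5.59%), 433 of them higher and 453 lower, where 5% would pass if nothing differed. A call by the thresholds of the methods therefore does not show that the single gene changed. On normalized values, every high heart lay above every low heart for 2 probe sets, Mybphl and Hamp (0.0126%), and no probe set lay below in every high heart (0%). The median log2 difference over all probe sets was −0.008, with quartiles of −0.16 and 0.15.

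Mybphl, which encodes a myosin-binding protein H-like protein of the sarcomere that is enriched in atria, had signals of 761.1 in PM-L replicate 2, 708.3 in PM-LD replicate 2, 442.1 in saline replicate 1, 324.2 in PM-L replicate 4, 428.7 in zinc sulfate replicate 2, and 389.9 in MSH replicate 1. The low hearts had 99.5 to 267.5 with a median of 171.1. Every high heart lay above every low heart, and the highest of the low hearts was PM-HD replicate 2, which was also the heart just below the limit of the atrial mean. The difference was 1.53 on the log2 scale (SE 0.20), or 2.89-fold (limma adjusted p = 0.00381), and it was higher in 5 of 5 groups, by 0.81 in MSH to 2.09 in PM-L. It passed in 23 of the 24 fits that left out 1 heart. The call was lost without PM-LD replicate 2, and the difference over these fits stayed between 1.36 and 1.70. With all hearts, the call was also lost with the replicate number as a block and when the atrial mean left out Sln.

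Mybphl belonged to a list of 26 atrial identity genes, of which 20 were measured besides the 4 that chose the hearts. By the thresholds of the methods, 3 of the 20 were higher (Mybphl, Stard10, and Dkk3) and 0 lower, against 201 higher and 150 lower of all 10407 genes measured. The median log2 difference of the list was 0.16 and 15 of 20 were above 0, against a median of −0.005 and 49.1% of all genes. Without PM-L replicate 4, 6 of the list were called, in a fit that called 981 probe sets against 630 with all hearts. Without the 9 hearts of a Gapdh ratio above 3, which can be a sign of degraded RNA, the median was 0.22 with 3 higher, among 238 of all 10407 genes. Many members were dim, with 7 of 20 at a mean signal under 100.

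Stard10, a lipid-transfer protein, had signals of 259.2 to 895.7 with a median of 657.9 in the high hearts and 26.5 to 617.5 with a median of 208.9 in the low hearts. The groups overlapped, with 6 low hearts inside the range of the high hearts. The log2 difference was 1.75 (SE 0.58, unadjusted p = 0.00642, adjusted p = 0.733 from limma) and was positive in 5 of 5 groups. A second, dimmer probe set of Stard10 differed by only 0.22. Dkk3, a secreted glycoprotein of the Dickkopf family, had 923.8 to 2161 against 796.3 to 1872, a difference of 0.50 (SE 0.18), and its second probe set differed by −0.15. The call of Dkk3 was lost without MSH replicate 1, where the difference was 0.34, and under 7 of 16 other alternatives, with a difference of 0.29 to 0.61 over these 16.

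The remaining atrial identity genes did not pass. Among the transcription factors, Tbx5, which is needed for atrial development, differed by 0.56 (SE 0.29), Nr2f2, an atrial identity factor, by 0.11 (SE 0.24), and its relative Nr2f1 by −0.30 (SE 0.28). Among the channels, Kcnj3 and Kcnj5, the subunits of the acetylcholine-activated potassium channel of the atria, differed by 0.43 (SE 0.23) and 0.33 (SE 0.17), and Kcna5, the ultrarapid potassium channel, by −0.40 (SE 0.29). Gja5, the connexin of atria, conduction fibers, and arterial endothelium, differed by −0.18 (SE 0.15). Pam, the amidating enzyme that is abundant in the membrane of atrial granules, had signals of 7303 to 11274 against 5425 to 12688, a difference of 0.31 (SE 0.13, 1.24-fold), and stood just under the fold limit. Its dimmer probe sets differed by −0.20 and −0.08. Of 11 measured secretory granule genes, Pam among them, 3 were above 0, with a median of −0.07. By the thresholds 0 of them were higher and 1 lower (Sv2a, by −0.70), against 201 higher and 150 lower of all 10407 genes. The mean signal was under 100 in 8 of the 11. Myh6, the alpha myosin heavy chain that rat atria and ventricles share, differed by 0.00 (SE 0.07), by −0.17 with median centering in place of quantile normalization, and by 0.69 (SE 0.45) at a dimmer probe set.

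Transcripts of ventricular muscle were abundant in every heart, high or low. Of 14 genes listed for ventricular identity, 11 were measured, with a median log2 difference of −0.05 and 4 of 11 above 0. None of the 11 passed the thresholds in either direction at its brightest probe set, against 201 higher and 150 lower of all 10407 genes. At such a share few or none of 11 genes would be called, so this count says little about ventricular identity. Myl2, the ventricular regulatory light chain, had signals of 19809 to 39114 with a median of 29506 in the high hearts and 27764 to 41465 with a median of 33982 in the low hearts. The normalized difference was −0.05 (SE 0.08). The 3 hearts with the highest atrial means had the 3 lowest Myl2 signals, 25359 in PM-L replicate 2, 23138 in PM-LD replicate 2, and 19809 in saline replicate 1, whereas the other 3 high hearts had 33652 to 39114. After quantile normalization, the differences within PM-L, PM-LD, and saline were 0.00, −0.18, and −0.14. With median centering instead, Myl2 differed by −0.16 (unadjusted p = 0.171 in limma). Low deposited signals in the 3 hearts with the highest atrial means were not limited to ventricular genes. Myh6, which atria and ventricles share, was also lowest in them, at 27412, 26724, and 21869, against 29819 or more in the low hearts. The lowest Tnnt2 signal was 19546 in the high and 26244 in the low hearts, whereas that of Myl3 was 17826 and 14473.

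Myl3, the ventricular essential light chain, differed by 0.15 (SE 0.15), and Myh7, the beta myosin heavy chain, by 0.06 (SE 0.11). Gja1, the connexin of working myocardium, differed by 0.00 (SE 0.08), and Pln, phospholamban, by 0.02 (SE 0.12). Dimmer probe sets of these genes gave other values, 1.02 (SE 0.62) for Myh7 and 0.35 (SE 0.18) for Pln, and a dimmer probe set of Kcnip2, a subunit of the transient outward channel whose brightest probe set differed by 0.15, was higher by 0.72 (SE 0.33, unadjusted p = 0.0389) and passed the thresholds. With median centering in place of quantile normalization, Myh7 differed by −0.08 and Myl3 by 0.13. Kcnd2, a subunit of the transient outward potassium channel, had signals of 244.4 to 349.7 against 272.2 to 506, a difference of −0.26 (SE 0.12, unadjusted p = 0.0445) that was below 0 in 5 of 5 groups but smaller than the fold limit. Irx4, a ventricular transcription factor, had signals of 3.0 to 127.8 over all hearts and differed by −0.18 (SE 0.30).

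**Figure D2:**
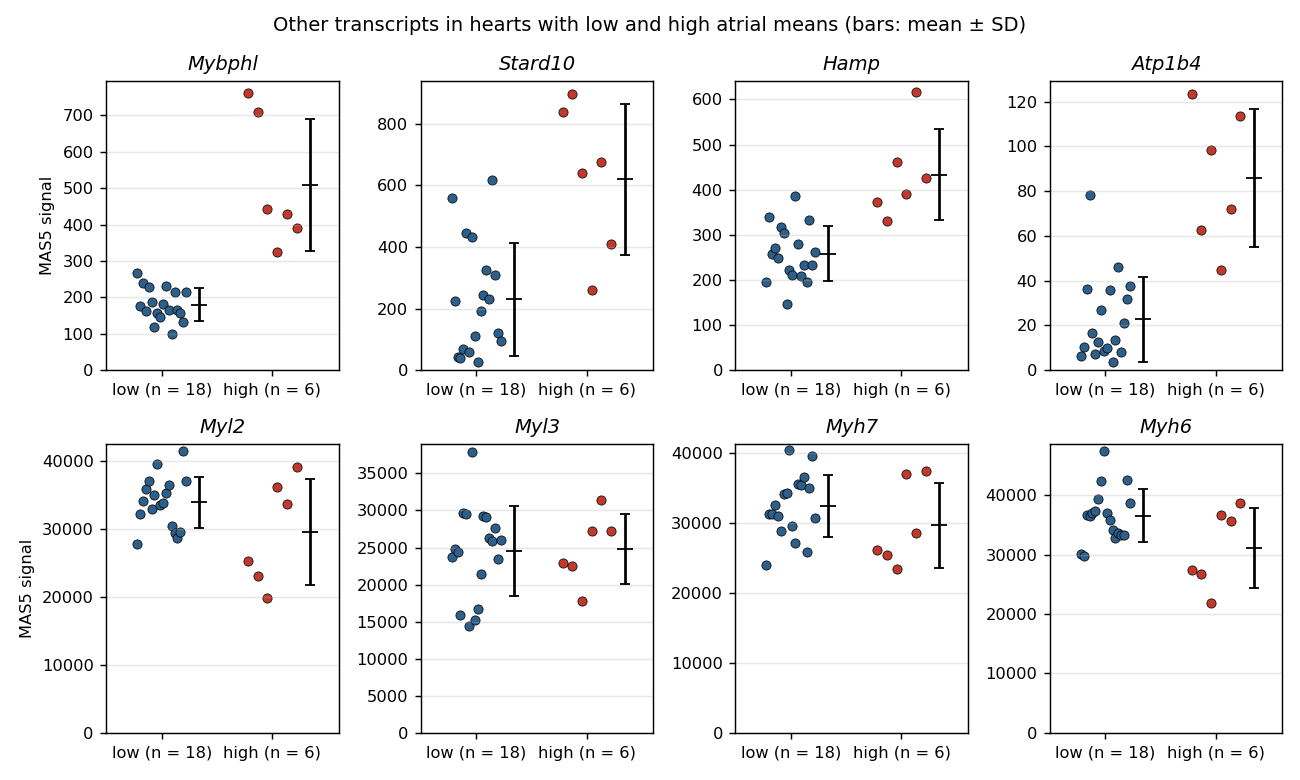
Signals of 8 transcripts that did not choose the hearts (MAS5 signal, axis from 0), for 18 low and 6 high hearts, with 1 point per rat and the mean ± SD beside them. Mybphl does not overlap (324.2 to 761.1 against 99.5 to 267.5), Stard10, Hamp, and Atp1b4 overlap in part, and for Myl2, Myl3, Myh7, and Myh6 the groups lie over each other apart from 3 high hearts with low Myl2 and Myh6.

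Outside the atrial list, the transcripts with low p had varied roles. Hamp, which encodes hepcidin, the hormone that limits iron export, had signals of 329.8 to 617.2 with a median of 408 in the high hearts and 145.7 to 385.5 with a median of 253.6 in the low hearts, a difference of 0.74 (SE 0.15, adjusted p = 0.14 from limma). It was higher in 5 of 5 groups, by 0.53 in saline to 1.44 in zinc sulfate. The groups did not overlap after normalization, but on the deposited signals 3 low hearts lay inside the range of the high hearts. Atp1b4, a muscle protein of the sodium pump beta-subunit family, was dim, with 44.8 to 123.2 against 3.7 to 78.4, and differed by 1.64 (SE 0.29, adjusted p = 0.0667 from limma), by 1.46 to 1.77 in the 5 groups. Vps45, a protein of vesicle traffic, differed by 0.61 (SE 0.14), and Car3, carbonic anhydrase 3, by 0.95 (SE 0.23). Atp1b4, Vps45, and Car3 were named after their values were seen.

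Among bright genes (a mean above the median of all probe sets), none passed the adjusted p, and the 14 with the lowest p among those higher by the thresholds of the methods differed by 0.32 to 0.74. After Hamp they included Tpd52l2 at 0.61 (SE 0.20), Actl6a, an actin-related chromatin protein, at 0.55 (SE 0.17), Qsox1, a disulfide-forming oxidase, at 0.52 (SE 0.16), Hif1a, the oxygen-regulated transcription factor, at 0.41 (SE 0.13), Ncoa4, the receptor for ferritin breakdown, at 0.34 (SE 0.11), and Sfrp1, a secreted Wnt antagonist, at 0.32 (SE 0.10). Sfrp1 lost its call in 10 of 24 fits that left out 1 heart. The second probe sets of Qsox1 and Hif1a differed by −0.06 and −0.15.

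The 10 bright genes with the lowest p among those lower differed by −0.42 to −0.93. Gadd45b, a stress-induced gene, had signals of 42.7 to 311.5 with a median of 266.4 in the high hearts and 248.4 to 529.2 with a median of 372.7 in the low hearts, a difference of −0.93 (SE 0.24). The difference was −2.32 in saline and −1.56 in MSH but −0.01 in PM-LD, so that it was uneven between groups. Gak, a kinase of clathrin uncoating, differed by −0.51 (SE 0.13), Dgka, a diacylglycerol kinase, by −0.50 (SE 0.14), and Myo5a, an unconventional myosin, by −0.46 (SE 0.15). All had an adjusted p of 0.733 in limma.

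Among other genes of natriuretic peptide biology, 5 of 12 measured were above 0 with a median of −0.03. By the thresholds 1 of the 12 was higher and 0 lower, against 201 higher and 150 lower of all 10407 genes. With the Gapdh ratio (described below) as a covariate, 7 of 12 were above 0 with a median of 0.14. Over fits without 1 heart the median ran from −0.05 to 0.20. Up to 4 genes passed, without MSH replicate 1, in a fit that called 1092 probe sets against 630 with all hearts. Nppb, B-type natriuretic peptide, which is abundant in ventricle under load, had signals of 5304 to 12491 with a median of 7780 against 2006 to 12287 with a median of 5677, a difference of 0.61 (SE 0.30, unadjusted p = 0.0577) that did not pass. Npr3, the clearance receptor, was higher by 0.43 (SE 0.16) by the thresholds of the methods, at signals of 12.6 to 47.5 against 6.9 to 34.7. Npr1, the receptor of both peptides, differed by −0.48 with an unadjusted p above 0.05.

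Of the 28 lists, skeletal muscle had 3 of 12 measured genes higher (Myl1 by 0.81, Pvalb by 0.75, and Casq1 by 0.64) and 0 lower, with a median of 0.12, against 201 higher and 150 lower of all 10407 genes. The summed signal of this list was 13118 to 23229 in the high hearts and 12678 to 29963 in the low hearts, and 8 of the 12 genes were under a mean signal of 100. Myh1 alone made up most of this sum, with 11327 to 21138 against 11231 to 28596, so the sum says little about the other members. With the Gapdh ratio as a covariate, Casq1 differed by 0.34 and no longer passed, whereas Myl1 at 0.97 and Pvalb at 0.85 still passed. Pvalb was very dim, with signals of 12.4 to 161.8 and a median of 19.8 in the high hearts. The low hearts had 6.9 to 76.8 with a median of 14.8. Myl1 differed by −0.01 in zinc sulfate and by 0.66 to 1.43 in the other groups with both kinds of hearts. The fast myosin heavy chains Myh1, Myh2, and Myh4 differed by −0.30, 0.12, and −0.27, and by −0.06, 0.17, and −0.32 with the Gapdh ratio as a covariate. The Myh1 probe set correlated with the log2 Gapdh ratio at r = 0.95. Shared sarcomere genes had 0 of 14 past the thresholds with a median of 0.03, and calcium handling had 0 of 16 with a median of 0.01. The conduction system had 0 of 10 with a median of 0.03.

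Markers of cells other than cardiomyocytes were examined as well. Endothelium had 14 of 14 genes below 0 with a median of −0.45, although none passed. Aqp1, a water channel of capillaries, differed by −0.62 and Pecam1, an adhesion molecule of the vessel wall, by −0.44. The summed signal of the endothelial list was 21948 to 53328 in the high hearts and 26721 to 86011 in the low hearts. Without PM-L replicate 4, 5 endothelial genes were lower by the thresholds, in a fit that called 426 of 15862 probe sets lower against 259 with all hearts. Without the hearts of a Gapdh ratio above 3, 3 were lower, among 183 of all 10407 genes. Fibroblasts and extracellular matrix had 24 of 28 genes below 0 with a median of −0.18, and 1 was lower (Fbln2, an extracellular matrix protein, by −0.53). Leukocytes had 0 of 22 past the thresholds with a median of −0.05, erythrocytes 0 of 4 with a median of −0.16, and lung 0 of 8 with a median of 0.21. Autonomic neurons, whose ganglia lie on the atria, had 0 of 17 higher and 2 lower (Nefl by −0.51 and Npy by −0.43). Of all 10407 genes measured, 201 were higher and 150 lower by these thresholds. With the Gapdh ratio as a covariate, Npy differed by −0.25 and Fbln2 by −0.23 and neither passed, whereas Nefl, at −0.45, still passed. Epicardium and mesothelium had 0 of 10 past the thresholds with a median of −0.06, adipocytes 0 of 13 with a median of 0.01, valve and cartilage 0 of 7 with a median of −0.16, and smooth muscle and large vessels 0 of 13 with a median of −0.22.

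Metabolic genes showed the opposite sign. Fatty acid oxidation had 22 of 24 genes above 0 with a median of 0.27 and none past the thresholds, and electron transport and ATP synthase had 34 of 45 above 0 with a median of 0.10 and none past them. Glycolysis and creatine kinase had 3 of 19 higher (Ckb by 0.67, Hk2 by 0.61, and Pfkl by 0.45) with a median of 0.23, against 201 of all 10407 genes higher. Without PM-LD replicate 2, 0 of the 19 were higher or lower, in a fit that called 467 probe sets against 630 with all hearts.

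The signal of the Gapdh probe set near the 3′ end over that of the one near the 5′ end, which rises when RNA is degraded, varied between hearts, and this Gapdh ratio is given here because these lists moved with it. It was 1.11 to 3.31 with a median of 1.44 in the high hearts, 2 of which were above 3, and 1.22 to 5.62 with a median of 2.22 in the low hearts, 7 of which were above 3. The log2 ratio differed by −0.50 within exposure groups (exact permutation test stratified by group, two-sided, p = 0.219). With this ratio as a covariate, the median of endothelium was −0.12 with 13 of 14 below 0, that of fibroblasts and extracellular matrix 0.00, that of fatty acid oxidation −0.04 with 8 of 24 above 0, that of electron transport −0.03, and that of glycolysis 0.01 with 0 of 19 past the thresholds. Without the 9 hearts of a ratio above 3, endothelium had a median of −0.36 with 14 of 14 below 0, fibroblasts and extracellular matrix −0.15, fatty acid oxidation 0.08, electron transport −0.03, and glycolysis 0.05. The paper gives a minimum for the ratio of large to small ribosomal RNA that all its RNA samples reached. It does not give that ratio for single hearts.

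Under the same covariate, the atrial identity genes had a median of 0.17 and Mybphl, Stard10, and Dkk3 were again the 3 of 20 higher by the thresholds. Mybphl differed by 1.38 (adjusted p = 0.00652 from limma). Stard10 moved to 1.09, Tbx5 to 0.25, Kcnj3 to 0.27, and Kcnj5 and Pam to 0.17 each. Other members moved up, such as Kcna5 to −0.08, Nr2f1 to −0.07, and Nr2f2 to 0.24. The similar median thus covers shifts of single genes in both directions. Ventricular identity had a median of −0.13 with 10 of 11 below 0 and 1 lower by the thresholds (Kcnj12, a potassium channel, by −0.57 against −0.32 without the covariate). The part of RNA integrity in the differences of the endothelial and metabolic genes was not tested beyond these fits.

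**Figure D3:**
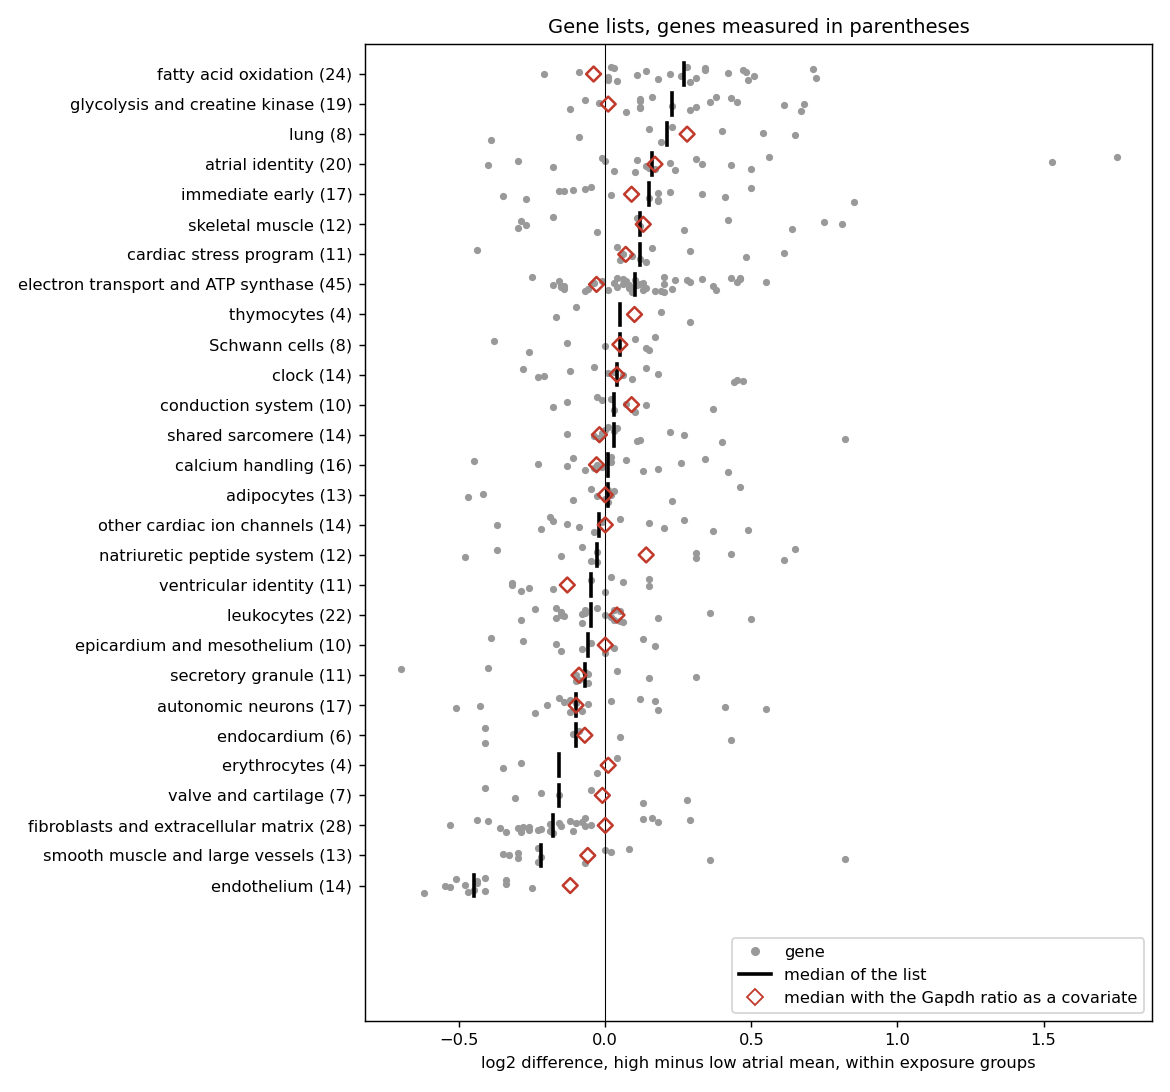
Log2 differences between high and low hearts within exposure groups (x axis) for the measured genes of 28 lists (y axis), with 1 grey point per gene, a black bar at the median, and a red diamond at the median with the Gapdh ratio as a covariate. The bars of endothelium (−0.45) and fatty acid oxidation (0.27) lie farthest from 0 and their diamonds lie nearer to it (−0.12 and −0.04). With the covariate, 13 of 14 endothelial genes were still below 0. Bar and diamond lie close for atrial identity (0.16 and 0.17) and also for other lists, such as lung (0.21 and 0.28) and skeletal muscle (0.12 and 0.13). Single atrial identity genes still moved with the covariate, in both directions.

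**Figure D4:**
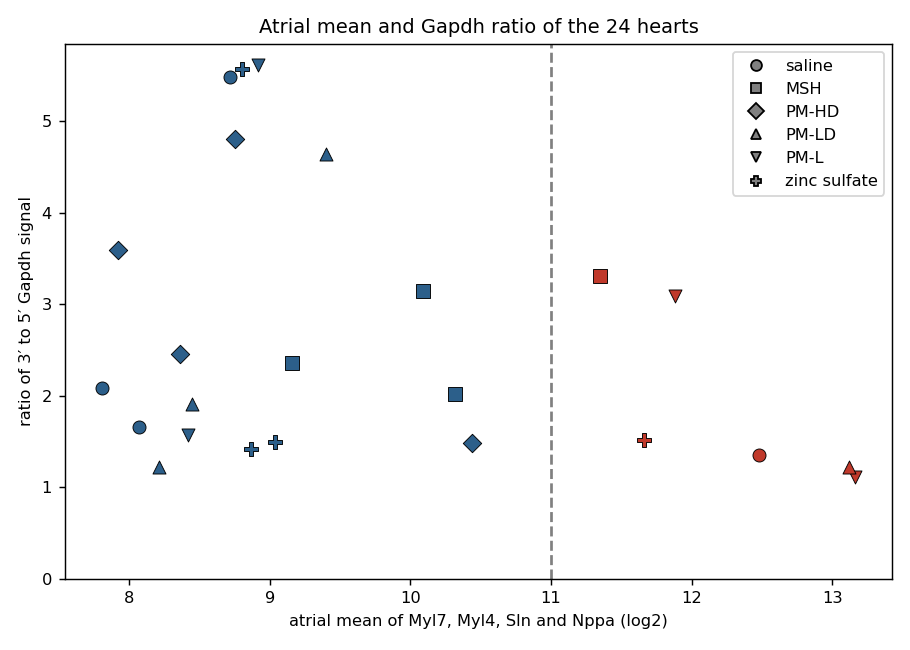
Ratio of 3′ to 5′ Gapdh signal (y axis) against the atrial mean (x axis, log2) in 24 hearts, with 1 point per rat, symbols for exposure groups, and a dashed line at the limit of 11. Of the 6 high hearts, 4 have ratios of 1.11 to 1.52, and PM-L replicate 4 and MSH replicate 1 have 3.09 and 3.31.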

How the data were processed

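The authors deposited MAS5 signals (Affymetrix Microarray Suite) of Rat 230A arrays, an unlogged intensity scaled to a trimmed mean of 500.1 to 500.2 per array. The study's own tests rested on robust multiarray averages, not used here. Signals ran from 0.1 to 61915. Precision is limited by how many arrays there are. The members and the gene lists were chosen with earlier results of these data known.

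After adding 16 to every signal, log2 values were quantile normalized across 24 arrays. Of 15923 probe sets, 57 Affymetrix controls and the 4 that chose the hearts were left out, and 15862 were fitted with limma 3.58.1 in R 4.3.3, with exposure group and high or low atrial mean as terms. Fold changes are on the log2(signal + 16) scale and understate those of dim genes. p was adjusted by Benjamini-Hochberg over all probe sets tested. Replicates are separate rats by their labels, and p-values measure the spread between them. The scripts were tested on simulated data.

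Probe sets were named from the platform annotation, in which 12783 have 1 symbol (10411 genes), 312 several, and 2771 none. Symbols were updated to RefSeq GRCr8 for 12773, and the brightest probe set stood for a gene. Genes named in the text were the 4 that chose the hearts, the atrial and ventricular identity lists, and 14 higher and 10 lower bright genes with the lowest p past the thresholds of the methods. Up to 4 members of each list with an adjusted p under 0.05 were added, which gave only Mybphl. Atp1b4, Vps45, Car3, Myl1, Nppb, and the other members of lists besides the identity lists were named after their values were seen. Numbers shared by replicates of different groups were not treated as pairs in the main fit. Residuals of rats with the same number had a median correlation of 0.05 (−0.26 to 0.52 over 60 pairs). Rats with different numbers had −0.02 (−0.5 to 0.41 over 180 pairs). Replicate 2 had the highest atrial mean in PM-L, PM-LD, PM-HD, and zinc sulfate, and replicate 1 in saline and MSH. Whether the numbers mark a shared order of processing was not tested. The alternatives were another pseudocount, median centering, an intensity trend, only probe sets above the median, no exposure covariate, the replicate number as a block, a lower or higher limit or fewer transcripts for the atrial mean, the Gapdh ratio as a covariate, and leaving out each array. After seeing the data, arrays with a Gapdh ratio above 3 or near the limit of the atrial mean were left out, and the atrial mean was used as a number.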

Additional observations from a re-analysis of the deposited data

Results flagged for a closer look

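Single hearts stood apart from the other 3 of their exposure group in 5 of 51 sets of 4 values that were examined, and about 1 in 20 sets would do so by chance. The 4 transcripts chose these hearts, so the first 3 values are a description. In saline replicate 1, log2 Myl4 was 11.94, and the nearest saline heart had 7.43. In zinc sulfate replicate 2, the atrial mean was 11.66 with the nearest heart at 9.04, and log2 Myl7 was 12.19 with the nearest at 8.83. Mybphl, which did not choose the hearts, had a log2 value of 9.53 in PM-LD replicate 2, and the nearest PM-LD heart had 7.6. The log2 Gapdh ratio of zinc sulfate replicate 3, a low heart, was 2.48, with the nearest heart at 0.6.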

How the results depend on the processing

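At an adjusted p under 0.05, 1 probe set passed, and its number was 4 with a pseudocount of 64, 6 without the exposure covariate, 0 among probe sets above the median (which leaves out Mybphl), and 0 when the atrial mean left out Sln, which adds a seventh high heart. With choices made after seeing the data it was 4 without hearts of a Gapdh ratio above 3, 3 without hearts near the limit of the atrial mean (MSH replicates 1, 3, and 4 and PM-HD replicate 2), and 2 with the atrial mean as a number. Leaving out each heart gave 0 (without PM-LD replicate 2) to 5 (without PM-HD replicate 2), with 2 without PM-HD replicate 3 or PM-LD replicate 3 and 4 without PM-L replicate 4. By the thresholds of the methods 630 probe sets passed, and the number was 247 among probe sets above the median, 395 with the Gapdh ratio as a covariate, 985 without hearts near the limit, and 1126 with the higher limit or when the mean left out Myl7 or Nppa, each of which leaves 5 high hearts. Leaving out each heart gave 394 (without PM-L replicate 2) to 1092 (without MSH replicate 1), with 981 without PM-L replicate 4. With the replicate number as a block, 0 probe sets passed the adjusted p and 364 the thresholds, so that Mybphl lost its call. Whether the numbers mark a shared order of the rats was not tested. Where no reason is given, the cause was not tested. Of the named genes that passed the thresholds, 31 were refitted under these alternatives and 0 changed direction. The other genes that passed, such as Npr3, Pvalb, Casq1, Ckb, Hk2, Pfkl, Nefl, and Npy, were not followed gene by gene under most of them. The spread of exposure groups over high hearts and the Gapdh difference stayed on the same side of the threshold, with p of 0.855 at the higher limit and of 0.14 without strata. Signals under 16 made up 4.77% to 10.75% of an array, and dim genes are the least certain.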
